A study of Arabidopsis thaliana with 48 samples.

Results

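Wild-type Arabidopsis thaliana leaves held in high light for 30 min (Col local) were compared with unlit leaves at the same time point (Col systemic). All 19556 genes with a mean normalised count of at least 10 over the 48 libraries of the series, of 32833 genes listed, are described, with 3 libraries per leaf. Over the 6 compared libraries alone, 19604 genes reached that mean. Both groups were Col-0 wild type, taken from 4-week-old plants grown in soil at 21 to 24 °C under 10 h of light and 14 h of dark; the local group is labelled as high light stress and the systemic group as untreated. The labels give 3 repeats, each from 20 plants, so each library pools plants. Light intensity, and the point whether the lit and unlit leaves of a repeat came from one set of plants, remain not given in the sources used here. Further libraries used here are lit and unlit 30 min leaves labelled as a knockout of the transcription factor gene MYB30 (myb30), with an allele not given in the sources used here, and lit and unlit Col leaves at 0, 2 and 8 min, 3 libraries each. The 6 compared libraries carry 30 min in their titles but 0 min in their time label, and they were grouped by title.

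Before the results, 3 of the Col libraries at 0 min need naming, since 2 comparisons below rest on that time. WRKY40, a transcription factor gene that responds within minutes to handling and wounding, had 1897 normalised counts in Col local 0 min replicate 3 and 496 in Col systemic 0 min replicate 1, against 38.0 to 58.3 in the other Col libraries of that time. Col systemic 0 min replicate 3 went against its genotype label: AT1G75945 had 891 normalised counts there, where myb30 libraries had 468 to 955 and the other Col libraries 24.1 to 278, and AT2G06995 had 21.9, where myb30 libraries had 6.48 to 32.7 and Col libraries 64.0 to 195 (each range over 21 libraries outside the systemic 0 min groups). The library labelled myb30 systemic 0 min replicate 3 went against its label the other way, with 258 for AT1G75945 and 125 for AT2G06995; it enters no contrast here but shares the fit's estimate of the spread. Results that use 0 min are given with and without these 3 Col libraries, or are said to include them.

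High light drives photosynthesis past its capacity and warms the leaf. Plants answer through heat shock factors, which switch on chaperone genes, through photoreceptors and the bZIP factor HY5, which act on pigment and photoprotection genes, and through reactive oxygen species made in the chloroplast. Unlit leaves of the same plant are known to receive a rapid systemic signal that travels with reactive oxygen and calcium waves. Sugar made in the light represses genes of starvation, while shade and darkness favour the PIF factors and auxin-driven growth.

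Promoter sequences of 7 genes are shown as examples of windows that hold the marked motif, chosen among genes that differed strongly between the leaves: heat shock genes and a heat shock factor (higher in the lit leaf), a phosphate starvation gene (higher), and a pair of genes lower in the lit leaf. Each is the 250 bases before the gene start, 5′ to 3′ on the gene's strand, from RefSeq on TAIR10.1. For the first 4, capitals mark a heat shock element of 3 units, GAA and its complement TTC in alternation with 2 free bases between units; for AT3G62950 and TPS11, capitals mark TATCCA, known as a sugar-response element; for SRG3, they mark GNATATNC, where N is any base, the element of the phosphate regulator PHR1. The last was added to the search after the values were seen. Both strands were searched and overlapping matches were counted separately.
HSP17.4 (AT3G46230, chr3:16984868-16985117, minus strand): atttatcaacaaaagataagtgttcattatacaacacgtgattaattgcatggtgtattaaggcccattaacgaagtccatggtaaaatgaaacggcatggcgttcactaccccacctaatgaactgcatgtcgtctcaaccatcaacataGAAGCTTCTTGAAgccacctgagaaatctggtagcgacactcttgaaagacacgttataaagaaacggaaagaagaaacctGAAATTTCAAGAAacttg
AT1G53540 (chr1:19980049-19980298, plus strand): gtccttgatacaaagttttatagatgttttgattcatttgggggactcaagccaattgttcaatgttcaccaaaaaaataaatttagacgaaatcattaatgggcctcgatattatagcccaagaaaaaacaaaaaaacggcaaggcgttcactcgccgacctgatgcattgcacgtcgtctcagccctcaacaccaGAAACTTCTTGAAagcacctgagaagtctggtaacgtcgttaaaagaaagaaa
HSFA7A (AT3G51910, chr3:19264891-19265140, plus strand): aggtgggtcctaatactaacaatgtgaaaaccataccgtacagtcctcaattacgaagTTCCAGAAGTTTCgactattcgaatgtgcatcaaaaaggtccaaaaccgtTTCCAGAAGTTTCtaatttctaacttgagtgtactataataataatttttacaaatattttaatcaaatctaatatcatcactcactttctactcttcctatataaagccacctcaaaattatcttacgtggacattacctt
AT1G71000 (chr1:26770178-26770427, minus strand): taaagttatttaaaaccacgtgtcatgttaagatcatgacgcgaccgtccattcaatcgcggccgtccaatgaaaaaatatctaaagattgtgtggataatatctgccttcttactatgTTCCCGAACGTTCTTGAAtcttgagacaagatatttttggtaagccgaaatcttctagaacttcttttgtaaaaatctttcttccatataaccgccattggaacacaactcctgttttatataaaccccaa
AT3G62950 (chr3:23265977-23266226, plus strand): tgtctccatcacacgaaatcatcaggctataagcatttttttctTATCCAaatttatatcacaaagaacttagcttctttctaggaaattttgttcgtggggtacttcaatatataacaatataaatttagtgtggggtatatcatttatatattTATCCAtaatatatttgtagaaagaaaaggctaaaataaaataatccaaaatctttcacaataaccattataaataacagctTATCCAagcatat
TPS11 (AT2G18700, chr2:8108648-8108897, plus strand): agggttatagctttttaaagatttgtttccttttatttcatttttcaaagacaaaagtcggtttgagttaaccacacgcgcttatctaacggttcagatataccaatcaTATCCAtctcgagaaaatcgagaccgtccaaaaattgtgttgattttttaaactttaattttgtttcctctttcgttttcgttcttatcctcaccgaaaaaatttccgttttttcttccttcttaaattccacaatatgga
SRG3 (AT3G02040, chr3:350011-350260, minus strand): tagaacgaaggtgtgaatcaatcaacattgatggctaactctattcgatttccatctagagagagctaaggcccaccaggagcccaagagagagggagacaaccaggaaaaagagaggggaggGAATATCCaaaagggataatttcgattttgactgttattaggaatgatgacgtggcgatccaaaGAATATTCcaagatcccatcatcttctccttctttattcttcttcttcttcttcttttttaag
HSP17.4 held 2 heat shock elements, at -99 and -18 from the gene start, AT1G53540 held 1 at -53, HSFA7A held 2 at -192 and -142, and AT1G71000 held 2 overlapping ones at -131 and -126. AT3G62950 held TATCCA at -206, -95 and -13, TPS11 held it once at -141, and SRG3 held the PHR1 element at -127 and -63. HSP23.6-MITO, HSP22.0, HSP21, HSP101 and BAG6, whose differences were also large, held 0 heat shock elements in this window. A match describes letters in the window and is not a binding site. The values of these genes follow in their groups, and the shares over all promoters close the account.

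By limma on log2(normalised count + 1) with Benjamini-Hochberg adjustment at 0.05, 9858 of 19556 genes (50.4%) differed between lit and unlit wild-type leaves at 30 min: 4894 (25%) were higher and 4964 (25.4%) lower in the lit leaf. The counts were scaled by the authors to their median-of-ratios size factors; a fold change here is the difference on the log2(normalised count + 1) scale, lit minus unlit, given with its standard error, and it understates the change of low genes. Most called differences were small, with a median of 0.52 among the higher genes and -0.58 among the lower. The largest differences lay mostly on the higher side: 1329 genes were called higher and 1158 lower by at least 1, 238 and 70 by at least 3, and 85 and 2 by at least 5. At 8 or more stood 32 higher genes and 0 lower ones. All 3 lit libraries lay above all 3 unlit ones for 5924 genes (30.3%) and below them for 5818 (29.8%), in either direction for 60% of tested genes. Over all tested genes the median difference was -0.01. The lit libraries held 75403505 to 80279053 reads and the unlit ones 75721462 to 84906906.

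The lit leaf's RNA was shifted in bulk. Genes called higher took 50.1% to 50.6% of the reads of each lit library, against 31.6% to 32.2% of each unlit one, and genes called lower took 14.3% to 14.9% against 24.6% to 25.7%. Both gene sets were chosen on these same libraries, so these shares give the size of the called sets and are no separate evidence of a shift. The 10 most read genes took 8.84% to 9.16% of the reads in lit libraries and 11.0% to 11.7% in unlit ones, and the authors' size factors were 0.776 to 0.844 in lit and 0.970 to 1.11 in unlit libraries. When libraries were instead scaled to their total reads, the median of all tested genes moved to -0.31 and the calls to 12795, of which 17.2% were higher. Every direction below is therefore relative to the bulk of genes, and list counts under quantile or total scaling are given where the balance of higher and lower genes turned. The part of RNA amount per cell in these results was not tested, and in bulk leaf samples fewer cells of a type and less RNA per cell cannot be told apart. Replicate plants were pooled, so p-values cover only the spread from pool to pool, and the labels do not say how the pools differed.

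**Figure D1:**
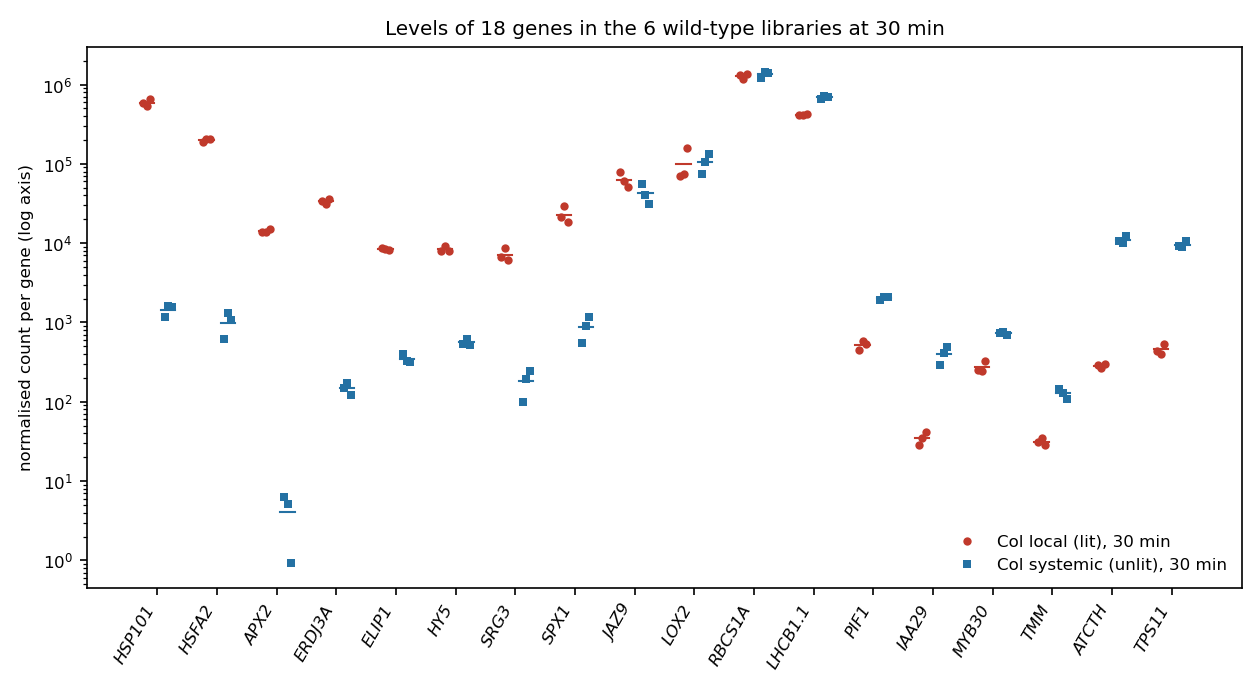
Normalised counts (log axis) of 18 genes in each 30 min wild-type library, lit leaves as circles on the left of each pair and unlit leaves as squares on the right, with a line at the mean of 3. The heat genes HSP101 and HSFA2 lie apart without overlap, LHCB1.1 and PIF1 are lower in the lit leaf, and JAZ9, LOX2 and RBCS1A overlap between leaves.

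The small heat shock proteins, which bind unfolding proteins and keep them from clumping, had the largest differences. In the cytosolic list 8 of 9 genes were higher in the lit leaf, with a median difference of 11.03, and in the organelle list 6 of 6 were higher, with a median of 13.21 (13.25 with HSP21 at its lower bound). The organelle members HSP22.0, HSP21 and AT1G52560 were near 0 in the unlit leaf. The organelle median therefore depends on the count of 1 added before the log and is not a measured ratio. HSP17.4 (AT3G46230) had 21562, 25750.2 and 26718 normalised counts in the lit leaves and 15.3, 12.4 and 6.43 in the unlit leaves, a difference of 11.03 ± 0.74, adjusted p = 3.8e-15. AT1G53540, an HSP20-like chaperone gene, had 204388, 210872 and 236182 in the lit leaves and 26.99, 14.4 and 10.11 in the unlit leaves (13.65 ± 0.89, adjusted p = 1.5e-15). The leaves did not overlap for either gene, and the unlit values stood at a few counts. HSP17.4 and HSP101 overlap annotated genes on the opposite strand, and strand was not given for the counting, so reads of such pairs cannot be told apart. Of 755 genes checked, 175 overlap another annotated gene, and not every such gene is marked in the text. Among those named below, MBF1C, GOLS1, ERDJ3A and APX4 overlap a gene on the opposite strand, and LUT2 and BBX32 one on the same strand.

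Several of these genes were close to absent in the unlit leaf, where a fitted fold change has no meaning, and their levels are given instead. HSP22.0 (AT4G10250), an endoplasmic reticulum member, had 52453, 53812 and 62022 normalised counts in the lit leaves and 0, 0 and 3.68 in the unlit leaves. AT1G71000, a chaperone DnaJ-domain gene, had 42009, 48158 and 57484 in the lit leaves and 0.9, 2.06 and 4.59 in the unlit leaves. HSP21 (AT4G27670), the chloroplast member, averaged 18869 ± 723 (SD, n = 3) in the lit leaves and was at 0 in all 3 unlit libraries, which makes it at least 19937-fold higher against a floor of 3 counts over the group. Mitochondrial HSP23.6-MITO (AT4G25200) had 131644, 145986 and 146269 in the lit leaves and 8.10, 4.12 and 6.43 in the unlit leaves (14.29 ± 0.78, adjusted p = 7.8e-18). HSP17.6A (AT5G12030) differed by 12.44 ± 0.75, HSP17.6II (AT5G12020) by 11.42 ± 0.57 and HSP18.2 (AT5G59720) by 9.56 ± 0.21, and the HSP20-like chaperone genes AT1G07400, AT2G29500 and AT1G59860 by 11.52 ± 0.58, 10.00 ± 0.37 and 9.60 ± 0.37. The one cytosolic member that did not pass was AT4G21870, at -0.30 with a 95% interval of -0.72 to 0.13. Total scaling called it lower, at -0.60. The cytosolic list as a whole took 1.21% to 1.35% of the reads in lit libraries against 0.000977% to 0.00141% in unlit ones.

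The larger ATP-driven chaperones moved with them. Of 20 HSP100, HSP90 and HSP70 genes, 19 were higher in the lit leaf and none lower, with a median of 3.28. HSP101 (AT1G74310), the disaggregase needed for acquired heat tolerance, had 579052, 528757 and 655556 normalised counts in the lit leaves and 1158, 1605 and 1580.3 in the unlit leaves, a difference of 8.67 ± 0.37, adjusted p = 5.7e-21. Hsp70b (AT1G16030) differed by 9.05 ± 0.18, HSP90.1 (AT5G52640), the stress-inducible HSP90, by 8.70 ± 0.37, and HSP70 (AT3G12580) by 6.54 ± 0.39. The abundant constitutive HSP70-1 (AT5G02500) was also higher, with 576419, 546598 and 574183 in the lit leaves and 149652, 172052 and 142668 in the unlit leaves (1.87 ± 0.15). The one gene of the list that did not pass was mtHSC70-1 (AT4G37910), at 0.30 with a 95% interval of 0.04 to 0.57. It was called higher with the replicate number as a block (limma, adjusted p = 0.00222) and without lit replicate 3 (0.37) or unlit replicate 1 (0.38). Total scaling put it at -0.0017 with no call. HSP90.2, HSP90.3 and HSP90.4 share 28.8%, 36.0% and 30.3% of their 31-base exon words with other genes, so the split of reads among them is uncertain.

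All 12 co-chaperone genes were higher in the lit leaf, with a median of 5.52. BAG6 (AT2G46240), a calmodulin-binding co-chaperone regulator, had 250958, 228946 and 277850 normalised counts in the lit leaves and 294, 370.1 and 396 in the unlit leaves (9.48 ± 0.21, adjusted p = 3.5e-29). ROF2 (AT5G48570), a prolyl isomerase that binds HSP90, differed by 8.20 ± 0.34, HOP3 (AT4G12400), which bridges HSP70 and HSP90, by 7.97 ± 0.30, and FES1A (AT3G09350), an HSP70 exchange factor, by 6.83 ± 0.31. Their lit and unlit libraries did not overlap.

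Among the heat shock factors, which bind the element shown above, 10 of the 17 tested genes were higher and 4 lower; 4 of the 21 did not reach the mean of 10. HSFA7A (AT3G51910) had 22288, 23266 and 26526 normalised counts in the lit leaves and 27.9, 30.9 and 35.8 in the unlit leaves (9.53 ± 0.41, adjusted p = 6e-21), and HSFA2 (AT2G26150), which prolongs the heat response, had 190376, 205976 and 205602 in the lit leaves and 613, 1300.1 and 1081 in the unlit leaves (7.72 ± 0.59). HSFA7B (AT3G63350) had 2744, 3070.6 and 3471 in the lit leaves and 0, 1.03 and 0 in the unlit leaves. HSFB1 (AT4G36990) was higher by 4.99. The master factors of the A1 class, which start the response and are known to be controlled through their proteins, were split: HSFA1E (AT3G02990) was higher (1.80 ± 0.14), HSFA1D (AT1G32330) was higher (0.89 ± 0.09), HSFA1A (AT4G17750) was lower (-0.38 ± 0.08), and HSFA1B (AT5G16820) did not pass, at 0.02 with a 95% interval of -0.24 to 0.27. HSFA6A (AT5G43840) and HSFA5 (AT4G13980) were lower, at -2.95 and -0.51. HSFA4A (AT4G18880) was the fourth lower member, at -0.60, and was not called without lit replicate 1 (-0.65) or 2 (-0.51) or 3 (-0.66) or unlit replicate 1 (-0.47) or 2 (-0.62).

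Of 9 tested DREB2, MBF1 and galactinol synthase genes, 8 were higher as well, with a median of 3.13. DREB2A (AT5G05410), which carries the drought and heat responses to HSFA3, had 10899.5, 10330.4 and 13569 normalised counts in the lit leaves and 81.9, 144 and 85.4 in the unlit leaves (6.83 ± 0.27, adjusted p = 1e-21). MBF1C (AT3G24500), a heat tolerance coactivator, differed by 5.93 ± 0.32 and GOLS1 (AT2G47180), which makes the raffinose precursor galactinol, by 4.56 ± 0.31. MBF1B (AT3G58680) was the member that did not pass, at -0.05 with a 95% interval of -0.18 to 0.09. Quantile and total scaling called it lower, at -0.23 and -0.35.

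Protein folding in the endoplasmic reticulum followed on a smaller scale, with 12 of 17 genes higher, 1 lower and a median of 0.87. ERDJ3A (AT3G08970), a luminal J-domain protein, had 34355, 31292 and 36197 normalised counts in the lit leaves and 150.2, 172 and 121 in the unlit leaves (7.84 ± 0.18, adjusted p = 8.2e-29). The luminal HSP70 genes BIP1 (AT5G28540) and BIP2 (AT5G42020) differed by 3.197 ± 0.21 and 2.96 ± 0.27; each shares over 36.0% of its 31-base words with other genes, so the split between them is uncertain. CNX1 (AT5G61790), a lectin chaperone, was higher by 2.19. IRE1B (AT5G24360), a sensor of the unfolded protein response, was lower (-0.21 ± 0.08) and was not called without lit replicate 2 (-0.19) or 3 (-0.18) or unlit replicate 1 (-0.19) or 2 (-0.20).

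Antioxidant genes were split. Of 23 ascorbate peroxidase, superoxide dismutase and catalase genes and their ascorbate partners, 12 were higher and 2 lower, with a median of 0.16, but quantile scaling gave 8 and 7 and total scaling 8 and 10, with a median of -0.15. APX2 (AT3G09640), the cytosolic peroxidase known as the classic high light marker, had 13993, 13774 and 14915 normalised counts in the lit leaves and 6.30, 5.16 and 0.919 in the unlit leaves (11.65 ± 0.39, adjusted p = 5.3e-24). The abundant cytosolic APX1 (AT1G07890) had 128567, 119185 and 129097 in the lit leaves and 28072, 27149 and 26374 in the unlit leaves (2.21 ± 0.13). VTC2 (AT4G26850), which sets the rate of ascorbate synthesis, was higher by 1.49 and DHAR2 (AT1G75270), which recycles ascorbate, by 1.183. CSD2 (AT2G28190), the chloroplast copper/zinc superoxide dismutase, was lower, with 6861, 11743 and 5238 in the lit leaves and 11752, 18197 and 11157 in the unlit leaves (-0.83 ± 0.24), and was not called without lit replicate 3 (-0.57) or unlit replicate 2 (-0.61). APX4 (AT4G09010) was lower, at -0.18.

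Of 9 tested glutathione transferase genes, which join glutathione to reactive compounds, 4 were higher, led by GSTU5 (AT2G29450) (2.48 ± 0.22) and GSTF8 (AT2G47730) (2.13 ± 0.16), and GSTU10 (AT1G74590) was lower (-0.38), a call that ended in 3 of the 6 sets with a library left out: it was not called without lit replicate 1 (-0.36) or 2 (-0.32) or unlit replicate 3 (-0.27). Mitochondrial retrograde genes, nuclear genes that answer to mitochondrial trouble, were higher in 4 of 6 tested cases. AOX1A (AT3G22370), the alternative oxidase, had 9167, 9699 and 9979 normalised counts in the lit leaves and 3134, 3236 and 3197 in the unlit leaves (1.59 ± 0.13, adjusted p = 1.5e-12), and AT2G21640, a marker gene of oxidative stress, differed by 2.59 ± 0.22. SOT12 (AT2G03760), a sulfotransferase of the same list, was lower (-1.09 ± 0.13).

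Genes of light signalling separated the leaves in both directions. Of 17 HY5, UV-B and B-box genes, 12 were higher and 3 lower, with a median of 0.91. HY5 (AT5G11260) had 7899, 9194 and 7966 normalised counts in the lit leaves and 539.8, 621 and 523 in the unlit leaves (3.89 ± 0.25, adjusted p = 1.2e-15), and its relative HYH (AT3G17609) differed by 2.56 ± 0.20. The B-box genes BBX32 (AT3G21150) and BBX31 (AT3G21890) differed by 4.63 ± 0.25 and 4.48 ± 0.21. The blue-light receptor genes CRY1 (AT4G08920) and CRY2 (AT1G04400) were lower: CRY1 had 7414, 7694 and 7925 in the lit leaves and 19211, 20457 and 21786 in the unlit leaves (-1.41 ± 0.07, adjusted p = 4.8e-19), and CRY2 differed by -1.14 ± 0.10. BBX21 (AT1G75540) was the third lower member (-1.07 ± 0.09).

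Photoprotection and carotenoid genes were higher in 12 of 16 cases and lower in 2, and this count fell to 6 against 4 under quantile scaling and 6 against 2 under total scaling. ELIP1 (AT3G22840), which binds free chlorophyll in excess light, had 8802, 8551 and 8085 normalised counts in the lit leaves and 405, 326 and 322 in the unlit leaves (4.599 ± 0.20, adjusted p = 6.6e-21), and ELIP2 (AT4G14690) differed by 3.15 ± 0.33. FER1 (AT5G01600), an iron-storing ferritin, was higher by 2.24 and BCH2 (AT5G52570), a beta-carotene hydroxylase, by 2.12. NPQ1 (AT1G08550), which makes zeaxanthin in high light, was lower (-0.59 ± 0.10), as was LUT2 (AT5G57030) (-0.27 ± 0.05), which directs carotenoids to lutein.

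In the phenylpropanoid list 10 of 20 tested genes were higher and 3 lower. The flavonol regulators MYB12 (AT2G47460), MYB111 (AT5G49330) and MYB11 (AT3G62610) differed by 4.12 ± 0.60, 2.95 ± 0.55 and 2.87 ± 0.46; MYB12 had 159, 102 and 98 normalised counts in the lit leaves and 11.7, 1.03 and 11.0 in the unlit leaves. MYBL2 (AT1G71030), a repressor of anthocyanin genes, was lower, with 687, 1057 and 828 in the lit leaves and 4947, 5528 and 6596 in the unlit leaves (-2.74 ± 0.17, adjusted p = 6.7e-16). UGT78D2 (AT5G17050), a flavonoid glucosyltransferase, was higher by 2.82, and PAL4 (AT3G10340) and 4CL1 (AT1G51680), at the entry of the pathway, were lower, at -0.57 and -0.33. PAL4 was not called without lit replicate 2 (-0.47) or unlit replicate 1 (-0.52) or 2 (-0.52), and 4CL1 was not called without lit replicate 2 (-0.31) or 3 (-0.32) or unlit replicate 2 (-0.28).

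**Figure D2:**
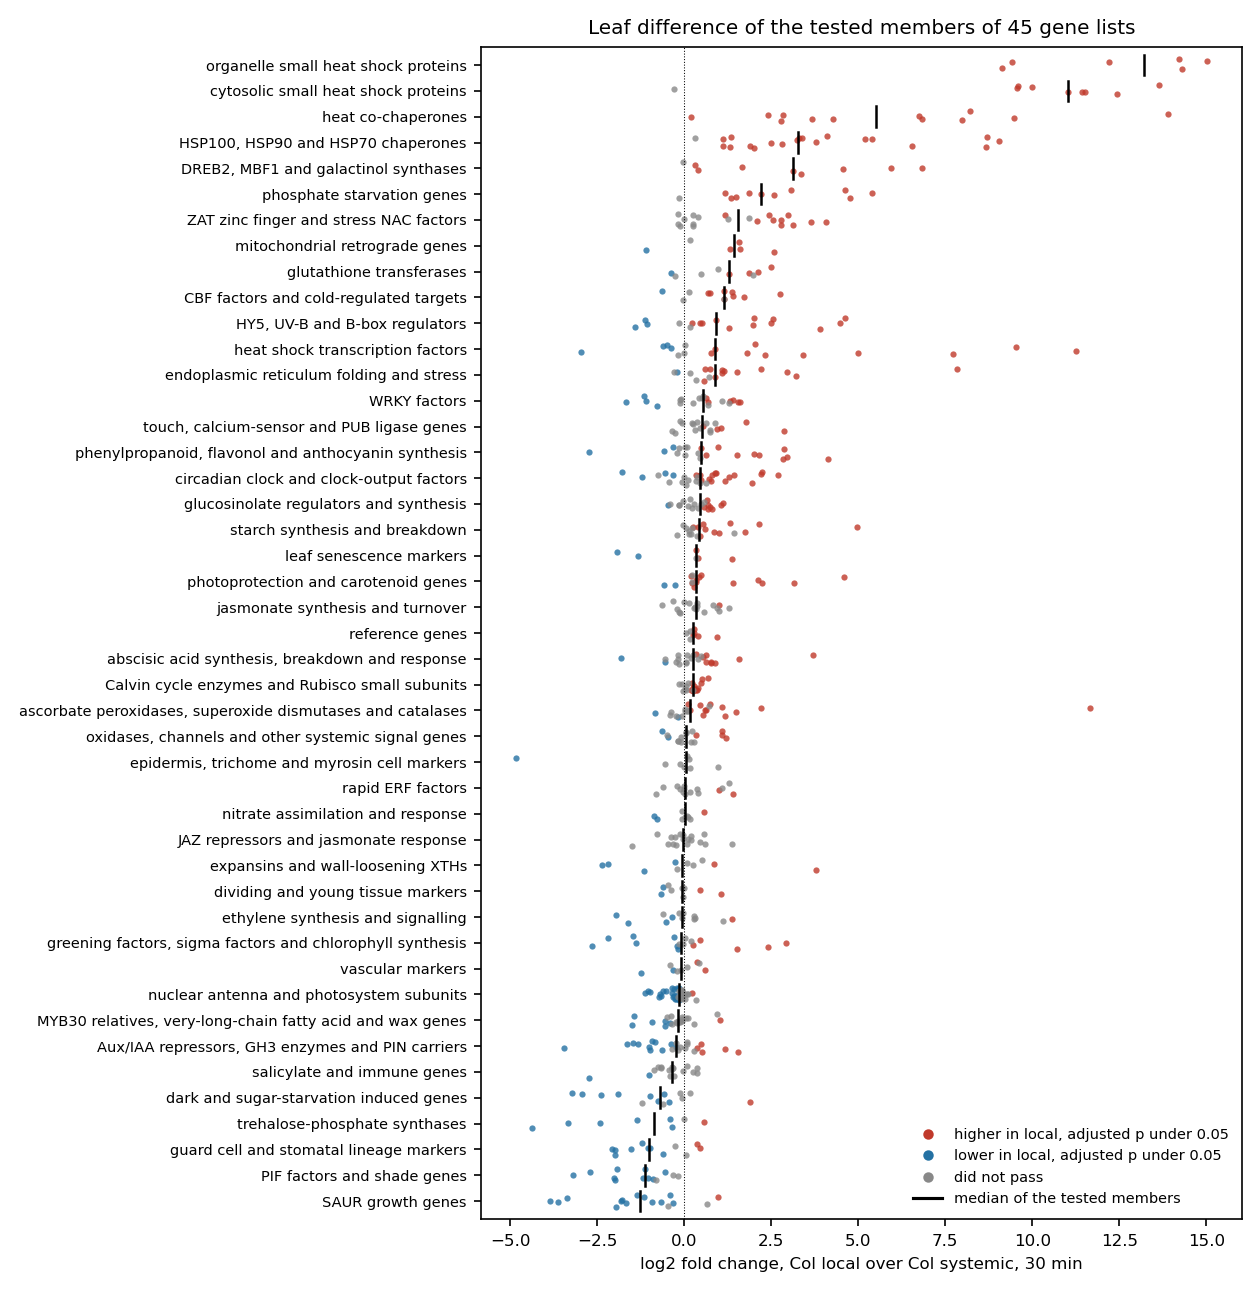
Differences between lit and unlit wild-type leaves at 30 min (lit minus unlit, log2 of normalised count + 1) for the tested members of 45 gene lists, 1 point per gene with the list's median. Heat lists lie far to the right and the SAUR and PIF lists to the left of 0; the Calvin cycle and antenna lists lie near 0, where total or quantile scaling flips the direction of many Calvin cycle members.

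Of 20 tested ZAT zinc finger and stress NAC genes, 10 were higher and none lower, with a median of 1.55. ZAT12 (AT5G59820), a regulator of oxidative and light stress, had 1752, 1555 and 1493 normalised counts in the lit leaves and 186, 106 and 103 in the unlit leaves (3.64 ± 0.63, adjusted p = 8.6e-06); ZAT6 (AT5G04340), ZAT10 (AT1G27730) and ATAF1 (AT1G01720) differed by 4.08 ± 0.47, 3.11 ± 0.90 and 2.97 ± 0.18. Of 20 tested WRKY genes, 6 were higher, led by WRKY48 (AT5G49520) (1.59 ± 0.32), and 4 lower, led by WRKY54 (AT2G40750) (-1.66 ± 0.43) and WRKY26 (AT5G07100) (-1.17 ± 0.31), shares near the 25% higher and 25.4% lower of all tested genes. Of 12 tested CBF and cold-regulated genes, 8 were higher, among them KIN1 (AT5G15960) (2.76 ± 0.33), ERD10 (AT1G20450) (1.36 ± 0.23) and COR47 (AT1G20440) (1.396 ± 0.17), and COR413IM1 (AT1G29395) was lower (-0.64 ± 0.20).

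Lists known for rapid systemic and wound signals held fewer calls between the leaves than all tested genes, of which 50.4% were called. Among those, 25% were higher and 25.4% lower. The touch and oxidase lists below were near that higher share and under the lower one by the authors' scaling, and the ERF list was under both. Of 15 tested rapid ERF genes, 2 were higher, ERF4 (AT3G15210) (1.39 ± 0.31) and RAP2.4 (AT1G78080) (1.00 ± 0.11), and none lower. At 30 min all 15 stood above the 0 min level of their own leaf, with a median of 2.90 in the lit leaf and 3.57 in the unlit leaf, and of 3.63 and 4.04 without the 3 libraries of 0 min named above. Of 18 touch, calcium-sensor and PUB ligase genes, 5 were higher, among them the calmodulin-like genes CML23 (AT1G66400) (1.77 ± 0.52) and TCH2 (AT5G37770) (1.06 ± 0.25). Of 16 oxidase, channel and systemic signal genes, 4 were higher, among them RBOHC (AT5G51060) (1.19 ± 0.32) and GLR3.2 (AT4G35290) (1.07 ± 0.08), a glutamate-receptor channel, and 2 lower, AT5G49760 (-0.64 ± 0.09) and the calcium channel OSCA1 (AT4G04340) (-0.46 ± 0.12). Quantile scaling gave 4 higher and 4 lower, and total scaling 3 higher and 8 lower. RBOHD (AT5G47910), the oxidase of the reactive oxygen wave, did not pass, with 6422, 5599.7 and 6562 in the lit leaves and 6935, 5734 and 3697 in the unlit leaves, a difference of 0.23 and a 95% interval of -0.25 to 0.71.

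Jasmonate synthesis genes stood above their 0 min levels in both leaves, and 1 passed the test between the leaves. Of 18 tested synthesis and turnover genes, 1 was higher, JAR1 (AT2G46370) (1.00 ± 0.23), which joins jasmonate to isoleucine, and none lower; of 18 tested JAZ and response genes, none passed in either direction. LOX2 (AT3G45140), a lipoxygenase at the start of jasmonate synthesis, had 70531, 74332 and 156446 normalised counts in the lit leaves and 75019, 106843 and 131809 in the unlit leaves, a difference of -0.12 with a 95% interval of -1.14 to 0.89. JAZ9 (AT1G70700), a repressor gene induced by jasmonate, had 78322, 60124 and 51295 in the lit leaves and 56220.4, 40508 and 30897 in the unlit leaves, 0.59 with an interval of -0.28 to 1.46. The lit and unlit libraries overlapped for both genes, and the wide intervals do not show that the leaves were alike. JAZ9 was higher in the lit leaf within each same-numbered pair. With the replicate number as a block it was called higher (0.59, limma adjusted p = 0.000217). Against the same leaf at 0 min, all 18 synthesis genes were above in both leaves, with a median of 4.06 in the lit and 4.19 in the unlit leaf, and of 4.23 and 4.48 without the 3 libraries of 0 min. Of the 18 JAZ and response genes, 17 stood above their 0 min level in the lit and 18 in the unlit leaf, with medians of 4.01 and 4.06, and of 4.29 in the lit and 4.05 in the unlit leaf without the 3 libraries. The comparison of the leaves fitted alone called 4 synthesis genes higher and 1 lower, and 2 JAZ and response genes higher.

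Other hormone and defence lists held more calls than the jasmonate lists. Of all tested genes, 25% were higher and 25.4% lower. Of 23 tested abscisic acid genes, 9 were higher and 2 lower, but 6 and 6 by total scaling: CYP707A4 (AT3G19270), which breaks the hormone down, differed by 3.70 ± 0.15, the phosphatase gene HAI1 (AT5G59220) by 1.58 ± 0.41, and the cleavage dioxygenase NCED4 (AT4G19170) was lower (-1.82 ± 0.13). Of 13 tested ethylene genes, 1 was higher, ACS6 (AT4G11280) (1.37 ± 0.45), a synthase of the ethylene precursor, which was not called without unlit replicate 3 (1.19). The 4 lower ones included ACS4 (AT2G22810) (-1.95 ± 0.38) of the same family and the receptor ERS1 (AT2G40940) (-0.51 ± 0.08). Of 17 salicylate and immune genes, none was higher and 2 were lower, NIMIN1 (AT1G02450) (-2.73 ± 0.75) and PAD4 (AT3G52430) (-1.02 ± 0.20). Of 20 tested glucosinolate genes, 8 were higher, led by BCAT4 (AT3G19710) (1.11 ± 0.31) and CYP79F2 (AT1G16400) (1.06 ± 0.26), and MYB28 (AT5G61420), a regulator of aliphatic glucosinolates, was lower (-0.47 ± 0.17) and was not called without lit replicate 3 (-0.42) or unlit replicate 1 (-0.44) or 3 (-0.38).

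Nuclear antenna and photosystem genes were called lower far more often than higher in the lit leaf, mostly by small amounts. Of 39 tested antenna and photosystem genes, 20 were lower and 1 higher, with a median of -0.16, and quantile and total scaling each gave 37 lower and none higher. LHCB1.1 (AT1G29920), a major antenna protein gene, had 408535, 414522 and 430405 normalised counts in the lit leaves and 658113, 711760 and 694569 in the unlit leaves (-0.72 ± 0.07, adjusted p = 2.4e-11); LHCB2.3 (AT3G27690) differed by -1.13 ± 0.09, LHCB1.4 (AT2G34430) by -1.04 ± 0.13 and PETE1 (AT1G76100), a plastocyanin, by -0.97 ± 0.06. The antenna genes of largest mean, LHCB1.3 (AT1G29930), LHCA4 (AT3G47470) and LHCB1.2 (AT1G29910), were lower, at -0.34, -0.33 and -0.36. LHCA1 (AT3G54890) was at -0.15 and was not called without lit replicate 1 (-0.13) or 2 (-0.16) or 3 (-0.14) or unlit replicate 1 (-0.17) or 2 (-0.14) or 3 (-0.14). The antenna list took 11.3% to 11.7% of the reads in lit libraries and 16.3% to 17.3% in unlit ones. LHCB1.1 to LHCB1.4 share 23.48% to 32.1% of their 31-base words with other genes, so reads may be split among them.

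Calvin cycle genes went the other way by the authors' scaling, with 11 of 19 higher and none lower, but quantile scaling gave 2 higher and 10 lower and total scaling 2 and 7. RCA (AT2G39730), the activase of Rubisco, had 1796140, 1607600 and 1790970 normalised counts in the lit leaves and 1233910, 1245100 and 1189630 in the unlit leaves (0.50 ± 0.10, adjusted p = 0.00013), and FBA1 (AT2G21330) differed by 0.68 ± 0.11. CA1 (AT3G01500), a carbonic anhydrase, was higher by 0.32, and by 0.02 with no call under total scaling. RBCS1A (AT1G67090), the main Rubisco small subunit gene, did not pass, with 1308640, 1184110 and 1352280 in the lit leaves and 1203320, 1455110 and 1401860 in the unlit leaves, -0.08 with a 95% interval of -0.30 to 0.15. Total scaling called it lower, at -0.38. The high level in both is that of green leaf tissue. CA1 overlaps another gene on its strand, and RCA one on the opposite strand.

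Greening and sigma factor genes were split, with 5 of 16 higher and 7 lower. SIG5 (AT5G24120), the light-induced sigma factor of the plastid polymerase, had 64027, 67524 and 69062 normalised counts in the lit leaves and 12235, 12864 and 12701 in the unlit leaves (2.41 ± 0.17, adjusted p = 9e-15), and the greening factor CGA1 (AT4G26150) differed by 2.93 ± 0.24. PORB (AT4G27440), which makes chlorophyllide in light, had 3035, 3949 and 5186 in the lit leaves and 14112, 19455 and 21765 in the unlit leaves (-2.20 ± 0.31, adjusted p = 1.8e-07), while PORA (AT5G54190), the dark-induced form, was lower, at -2.65, as was GLK2 (AT5G44190), a chloroplast development factor, at -1.39.

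Genes induced by darkness and sugar starvation were in part lower in the lit than in the unlit leaf. Of 14 such genes tested, 8 were lower and 1 higher, with a median of -0.70. BZIP1 (AT5G49450), a starvation transcription factor, had 71.1, 93.2 and 70.9 normalised counts in the lit leaves and 690.0, 729.9 and 773 in the unlit leaves (-3.21 ± 0.19, adjusted p = 5.6e-17), DIN10 (AT5G20250) differed by -2.93 ± 0.30 and ASN1 (AT3G47340), the asparagine synthetase of dark leaves, by -2.39 ± 0.27. DIN9 (AT1G67070) was the higher member (1.89 ± 0.19). Against the same leaf at 0 min, the list's median stood at -0.13 in the lit and 0.70 in the unlit leaf. Of the 14 genes, 4 stood above 0 min in the lit leaf and 12 in the unlit leaf. The 3 libraries of 0 min named above are included in these values.

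Of 8 trehalose-phosphate synthase genes, 6 were lower and 1 higher. TPS11 (AT2G18700) had 437, 399 and 542 normalised counts in the lit leaves and 9133, 8837 and 10505 in the unlit leaves (-4.37 ± 0.16, adjusted p = 8.7e-23), TPS8 (AT1G70290) differed by -3.34 ± 0.15 and TPS9 (AT1G23870) by -2.42 ± 0.16. TPS5 (AT4G17770) was higher (0.56 ± 0.13), a call that total scaling ended at 0.26, and TPS1 (AT1G78580), the catalytic member, did not pass, at 0.00 with a 95% interval of -0.15 to 0.15. Quantile and total scaling called TPS1 lower, at -0.18 and -0.30. The groups did not overlap for TPS11, TPS8 or TPS9.

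Of 20 starch genes, 11 were higher and none lower, and quantile scaling gave 9 and 1, total scaling 7 and 3. GPT2 (AT1G61800), a glucose-phosphate carrier of chloroplasts that adjusts leaves to more light, had 324, 367 and 241 normalised counts in the lit leaves and 8.10, 6.19 and 13.8 in the unlit leaves (4.96 ± 0.84, adjusted p = 6.2e-06), and the beta-amylase family gene BAM9 (AT5G18670) differed by 1.75 ± 0.34 and the starch synthase GBSS1 (AT1G32900) by 1.31 ± 0.24. 

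The lowest genes of all by the naming rule were of mixed kinds. AT3G15450, an aluminum-induced protein with YGL and LRDR motifs, had 129, 136 and 147 normalised counts in the lit leaves and 4232, 4911 and 5586 in the unlit leaves (-5.14 ± 0.24, adjusted p = 5.2e-20), AT3G62950, a thioredoxin superfamily gene, had 33.2, 26.3 and 38.7 in the lit leaves and 662, 669 and 737 in the unlit leaves (-4.37 ± 0.21), and the zinc finger gene ATCTH (AT2G25900) had 287, 265 and 298 in the lit leaves and 10585, 9951 and 12278 in the unlit leaves (-5.26 ± 0.21). The groups did not overlap for any of them. PDF1 (AT2G42840), the protodermal factor of the epidermis, differed by -4.83 ± 0.76, AT1G06080, a delta 9 desaturase, by -4.42 ± 0.72, OFP16 (AT2G32100) by -4.42 ± 0.21 and UMAMIT27 (AT1G11450), of an amino acid transporter family, by -4.16 ± 0.52. MIR167d (AT1G31173), AT5G48490, AT5G02865 and AT4G29020 differed by -4.50, -4.26, -4.23 and -4.20.

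Phosphate starvation genes were higher in the lit leaf in 10 of 11 tested cases and lower in none, with a median of 2.19. SRG3 (AT3G02040, chr3:348167-350010), whose promoter is shown above, had 6727, 8704 and 6084 normalised counts in the lit leaves and 98.1, 196 and 246 in the unlit leaves (5.39 ± 0.59, adjusted p = 1e-09). SPX1 (AT5G20150), a phosphate sensor that inhibits PHR1, had 21379, 29104 and 18367 in the lit leaves and 558, 893 and 1167 in the unlit leaves (4.75 ± 0.40), the acid phosphatase PAP17 (AT3G17790) differed by 4.61 ± 0.48 and the pyrophosphatase AT1G73010 by 3.06 ± 0.32. PHO1 (AT3G23430), which loads phosphate into the xylem, did not pass, at -0.15 with a 95% interval of -0.61 to 0.31. Against the same leaf at 0 min the list's median stood at 1.46 in the lit and -0.58 in the unlit leaf (1.49 and -0.75 without the 3 libraries of 0 min). Of the 9 tested nitrate genes, NRT1.1 (AT1G12110) was higher (0.56 ± 0.12) and the nitrate reductases NIA1 (AT1G77760) and NIA2 (AT1G37130) were lower (-0.80 ± 0.15 and -0.88 ± 0.14).

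Growth and shade genes were lower in the lit leaf. Of 13 PIF and shade genes, 10 were lower and none higher, with a median of -1.13. PIF1 (AT2G20180) had 453, 578 and 527 normalised counts in the lit leaves and 1896, 2118 and 2105 in the unlit leaves (-1.98 ± 0.11, adjusted p = 8e-18), and the other PIF family members PIF5 (AT3G59060), PIF4 (AT2G43010) and PIF7 (AT5G61270) were lower, at -1.04, -0.90 and -0.54, while PIF3 (AT1G09530) did not pass, at -0.18. Total scaling called PIF3 lower, at -0.48. YUC9 (AT1G04180) and YUC8 (AT4G28720), which make auxin downstream of PIFs, differed by -3.19 ± 0.48 and -2.70 ± 0.43, and PAR1 (AT2G42870) by -2.01 ± 0.34.

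Auxin response followed the same direction for many members. Of the 16 SAUR genes listed, small auxin-up genes of cell expansion, 13 were lower and 1 higher, SAUR32 (AT2G46690) (0.95 ± 0.16), with a median of -1.26. These 16 were chosen with earlier results of these data known and do not stand for all SAUR genes. The leaf difference of the SAUR-like gene AT1G75580, named below, was more positive at 30 than at 8 min, by 5.81. SAUR19 (AT5G18010) had 16.6, 11.95 and 21.9 normalised counts in the lit leaves and 193, 218 and 232 in the unlit leaves (-3.63 ± 0.26, adjusted p = 1.2e-14), though 39.6% of its words are shared with other genes, and SAUR22 (AT5G18050) differed by -3.37 ± 0.19. SAUR1 (AT4G34770) had 4.74, 0 and 0 in the lit leaves and 25.2, 18.6 and 33.1 in the unlit leaves, at the low end of detection. Of 24 tested Aux/IAA, GH3 and PIN genes, 11 were lower, led by IAA29 (AT4G32280) (-3.46 ± 0.34, adjusted p = 5.8e-11), with GH3.5 (AT4G27260) (-1.47 ± 0.18) and the carrier PIN7 (AT1G23080) (-1.33 ± 0.11), and 5 higher, led by IAA6 (AT1G52830) (1.53 ± 0.19). Of 10 expansin and XTH genes, EXPA1 (AT1G69530) (-2.37 ± 0.11), EXPA8 (AT2G40610) (-2.19 ± 0.17) and EXPA10 (AT1G26770) (-1.14 ± 0.27) were lower and XTH23 (AT4G25810) (3.78 ± 0.56) and XTH9 (AT4G03210) (0.86 ± 0.22) higher. EXPA3 (AT2G37640), named to complete the count, was the fourth called lower, at -0.28, and was not called without lit replicate 1 (-0.28) or 2 (-0.25) or 3 (-0.30) or unlit replicate 1 (-0.24) or 2 (-0.27) or 3 (-0.31).

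Clock genes moved in both directions, with 15 of 29 higher and 4 lower and a median of 0.46. GI (AT1G22770), an evening clock component, had 9131, 9653 and 11591 normalised counts in the lit leaves and 1949.6, 2086 and 2503 in the unlit leaves (2.22 ± 0.22, adjusted p = 1.1e-10), the morning gene PRR9 (AT2G46790) differed by 1.94 ± 0.12, RVE7 (AT1G18330) by 2.22 ± 0.17 and AT1G26790 by 2.68 ± 0.56. CDF2 (AT5G39660) was lower (-1.80 ± 0.16), as was CHE (AT5G08330) (-1.20 ± 0.12). LHY (AT1G01060), a core morning factor, did not pass, at 0.36 with a 95% interval of -0.27 to 0.99. It was called higher by limma with the compared groups fitted alone (adjusted p = 0.00219) and with the replicate number as a block (adjusted p = 0.00281). PRR9 and RVE7 share 41.1% and 62.95% of their words with other genes.

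MYB30 (AT3G28910), the gene knocked out in myb30 per the study's design text, had 250.1, 244 and 322 normalised counts in the lit leaves and 734, 754 and 701 in the unlit leaves of the wild type (-1.43 ± 0.22, adjusted p = 1e-06), so its RNA was lower in the lit leaf without overlap. Of 22 tested wax genes, fatty acid elongases and relatives of MYB30, 6 were lower, among them MYB94 (AT3G47600) (-0.93 ± 0.15) and KCS20 (AT5G43760) (-0.57 ± 0.15). MYB96 (AT5G62470), a regulator of wax under drought, was the 1 higher member (1.02 ± 0.13). The lower share was near the 25.4% of all tested genes. Total scaling gave 13 lower and 1 higher, where 10590 of all 19556 tested genes were lower.

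Of 12 tested guard cell and stomatal lineage markers, 8 were lower and 2 higher, with a median of -1.01, and their summed level was 5432 to 5877 normalised counts in the lit libraries and 7658 to 8439 in the unlit ones. TMM (AT1G80080), a receptor of stomatal patterning, had 30.8, 34.7 and 28.4 in the lit leaves and 147, 129.9 and 108 in the unlit leaves (-1.996 ± 0.30, adjusted p = 6.1e-07), and SLAC1 (AT1G12480), the guard cell anion channel, differed by -1.55 ± 0.24, EPF1 (AT2G20875) by -1.99 ± 0.33 and SCAP1 (AT5G65590) by -2.07 ± 0.16. The guard cell channel GORK (AT5G37500) and the peptide gene EPFL9 (AT4G12970) were higher, by 0.35 and 0.46; GORK was not called without lit replicate 3 (0.32) or unlit replicate 1 (0.28), EPFL9 was not called without unlit replicate 1 (0.37), and total scaling ended both calls. Of the other lists, PDF1 was the only call among 8 tested epidermis markers, 2 of 9 vascular markers were higher and 2 lower, and 2 of 9 dividing tissue markers were higher and 2 lower, near the 50.4% called of all tested genes. Vascular markers gave 1 higher and 3 lower by quantile and by total scaling, and dividing tissue 1 and 5 by total scaling. Of 6 tested senescence markers, 3 were higher and 2 lower, and 1 and 2 by total scaling. Their summed levels were 287264 to 322857 in lit against 294675 to 323687 in unlit libraries for epidermis, 28880.5 to 35768 against 32128 to 32203 for vascular tissue and 1243 to 1431 against 1309 to 1507 for dividing tissue. The part of these cell types in other results was not tested. Of 8 reference genes, 5 were higher, with ACT7 (AT5G09810) (0.94 ± 0.10) the largest; quantile scaling gave 2 higher and 3 lower and total scaling 1 and 1.

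Organelle-encoded transcripts were higher in the lit libraries. Of 42 tested mitochondria-encoded transcripts, 41 were higher and none lower, with a median of 1.88. ATMG01390, the one of largest mean, had 18151, 20480.4 and 18009 normalised counts in the lit leaves and 5252, 5651 and 5931 in the unlit leaves (1.75 ± 0.18), and ATMG00690 had 1340.4, 1783 and 1433 in the lit leaves and 109, 134 and 128 in the unlit leaves (3.604 ± 0.25). Of 86 tested chloroplast-encoded transcripts, 39 were higher and 1 lower, but total scaling gave 9 and 2. Reads of mitochondrial genes were 0.0495% to 0.0578% of the lit libraries and 0.0227% to 0.0256% of the unlit ones, and those of chloroplast genes 0.0663% to 0.0779% of the lit and 0.0562% to 0.0619% of the unlit ones. How RNA was selected is given only as standard Illumina preparation, and the part of RNA selection in these values was not tested.

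**Figure D3:**
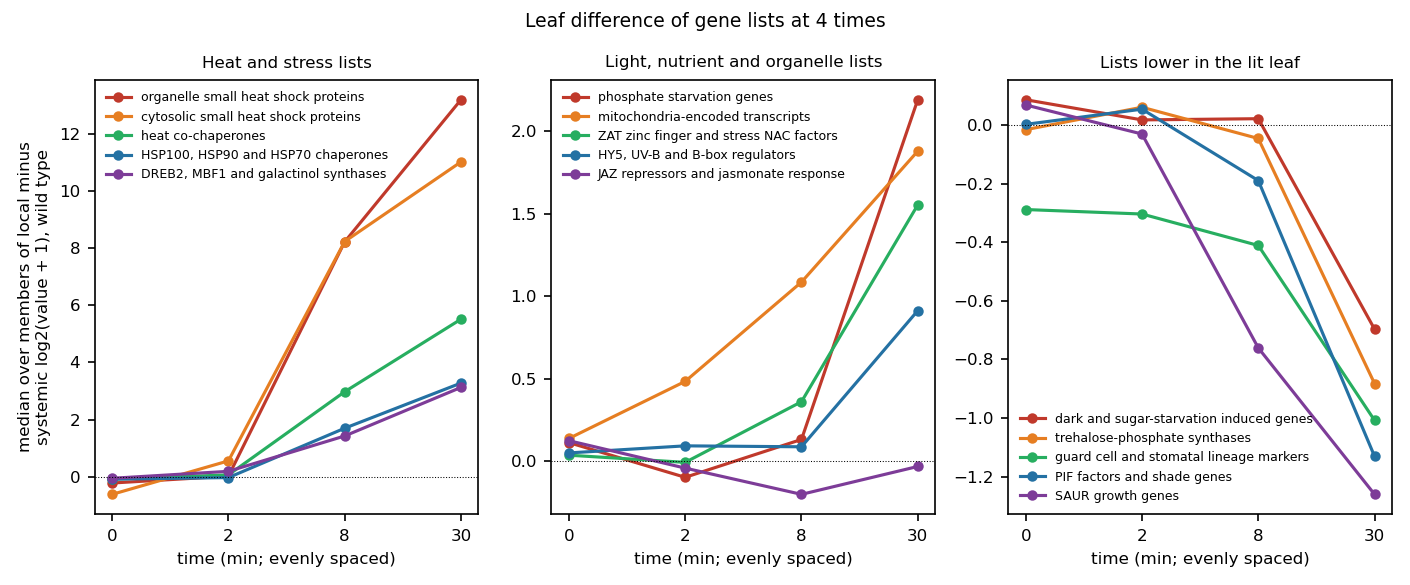
Median difference between lit and unlit wild-type leaves (lit minus unlit, log2) at 0, 2, 8 and 30 min for 15 gene lists in 3 panels, 1 line per list, 3 libraries per leaf and time, the 3 named 0 min libraries included. The small heat shock lists are near 0 at 2 min and above 8 by 8 min, while the phosphate, trehalose-phosphate synthase and starvation lists are near 0 until 8 min.

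Across the time points the lists separated at different times. At 0 min no gene was called between the leaves, with 842 at an unadjusted p under 0.05 by limma and 862 by edgeR and 968 by DESeq2, both also with 0 calls; 0% of 19556 genes were called, and limma called 0 without the 3 libraries as well. The median leaf difference of the cytosolic small heat shock genes was -0.62 at 0 min, 0.55 at 2 min, 8.24 at 8 min and 11.03 at 30 min, and that of the co-chaperones -0.09, 0.06, 2.97 and 5.52; without the 3 libraries of 0 min the values at that time were 0.04 and -0.25. The phosphate list was still at 0.13 at 8 min and 2.19 at 30 min, the trehalose-phosphate synthases at -0.04 and -0.88, the HY5 list at 0.09 and 0.91. SAUR genes were at -0.76 by 8 min and -1.26 at 30 min, and mitochondria-encoded transcripts at 0.48, 1.08 and 1.88 at 2, 8 and 30 min. The 1329 genes called higher by at least 1 at 30 min had a median of 0.40 at 8 min and 0.06 at 2 min; these genes were chosen at 30 min.

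Genes whose leaf difference at 30 min departed from that at 8 min numbered 4880 (25%), 2538 (13%) with a more positive and 2342 (12%) with a more negative difference. The most positive was APX2 (AT3G09640), at 6.49 ± 0.56, adjusted p = 1.6e-11: it averaged 149.8 ± 24.1 (SD, n = 3) in lit and 3.45 ± 1.97 in unlit leaves at 8 min, and 14227 ± 606 in lit and 4.12 ± 2.83 in unlit leaves at 30 min. GPT2 (AT1G61800) (5.95 ± 1.19), AT1G75580, a SAUR-like gene (5.81 ± 0.36), HSP18.2 (5.41 ± 0.29) and ELI3-2 (AT4G37990), a cinnamyl alcohol dehydrogenase (5.34 ± 1.94), followed. The most negative were AT3G15450 (-4.12 ± 0.33), AT3G62950 (-4.06 ± 0.29), BBX17 (AT1G49130) (-3.87 ± 0.32), TPS11 (-3.76 ± 0.23) and the zinc finger gene AT5G22920 (-3.64 ± 0.31). TPS11 averaged 2082 ± 143 in lit and 3203 ± 362 in unlit leaves at 8 min, and 459 ± 73.7 in lit and 9491 ± 890.0 in unlit leaves at 30 min.

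**Figure D4:**
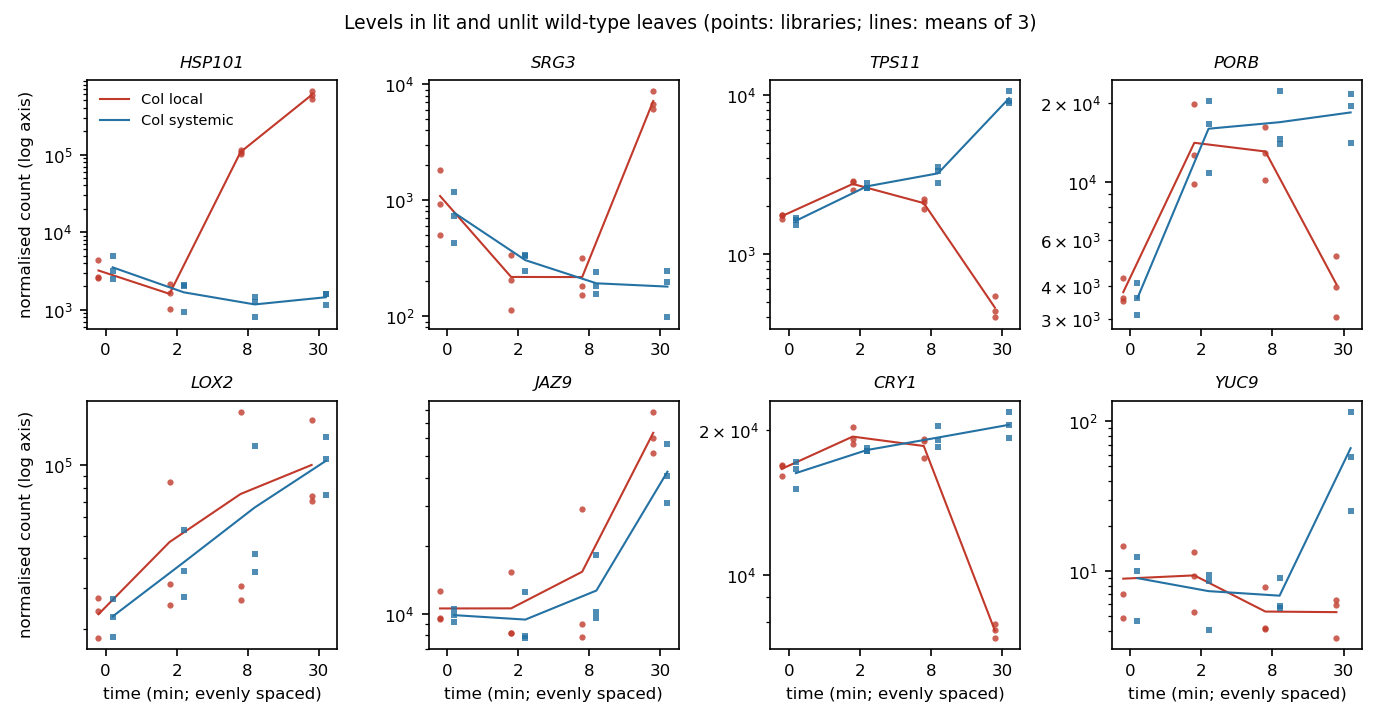
Normalised counts (log axis) of 8 genes in wild-type leaves at 0, 2, 8 and 30 min (evenly spaced on the x axis), lit leaves as red circles and unlit leaves as blue squares, 1 point per library and lines through the means of 3. HSP101 parts between leaves by 8 min, SRG3 parts between 8 and 30 min, TPS11 lies apart slightly at 8 min and further at 30 min, and LOX2 and JAZ9 climb in both leaves.

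Against the 0 min leaf difference, 7206 genes (36.8%) had changed, 3597 (18.4%) upward and 3609 (18.5%) downward, and 5206 without the 3 libraries of 0 min named above. HSP23.6-MITO (14.56 ± 1.098), AT1G53540 (14.27 ± 1.26), HSP17.6A (14.20 ± 1.05), AT1G07400 (12.50 ± 0.83) and HSP17.6II (12.002 ± 0.81) led upward, and PDF1 (-5.63 ± 1.08), ATCTH (-5.25 ± 0.29), AT3G15450 (-5.14 ± 0.33), MIR167d (-4.99 ± 0.43) and AT1G06080 (-4.94 ± 1.02) downward. Without the 3 libraries these values were 13.98, 12.79, 13.16, 12.15 and 11.28, and -3.98, -5.27, -4.97, -4.98 and -4.07, in the same order, with adjusted p of at most 0.0271. The comparisons against 8 and 0 min share the 30 min libraries with the comparison of the leaves at 30 min.

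In libraries labelled myb30, MYB30 averaged 204 ± 24.3 normalised counts in the lit and 508 ± 37.5 in the unlit leaves at 30 min (SD, n = 3), against 272 ± 43.7 and 729.6 ± 26.6 in lit and unlit Col leaves. RNA of the gene was thus counted in the mutant, and a count over the whole gene does not check an allele that leaves RNA. In these libraries 8205 genes (42%) differed between lit and unlit leaves at 30 min, 4032 (20.6%) higher and 4173 (21.3%) lower. Of the 9858 genes called in the wild type, 9793 had the same sign in myb30, 7482 were called there in the same direction and 0 in the opposite one. The test of the difference between the genotypes, myb30 minus Col, called 30 genes (0.153%), 1 (0.00511%) with a more positive difference in myb30 and 29 (0.148%) with a more negative one. AT3G23170, which has no characterised product, had a leaf difference of 3.35 ± 0.19 in myb30 and 4.85 ± 0.19 in Col (-1.50 ± 0.26, adjusted p = 0.00774 for the difference). HSP18.2 had 8.11 ± 0.21 in myb30 and 9.56 ± 0.21 in Col (-1.44 ± 0.29, adjusted p = 0.0248), and AT3G09450, of the fusaric acid resistance family, 2.17 ± 0.19 in myb30 and 3.604 ± 0.19 in Col (-1.43 ± 0.26, adjusted p = 0.0108). RBL14 (AT3G17611), a rhomboid protease gene, and the F-box gene AT4G34550 differed between genotypes by -0.97 ± 0.21 and -0.95 ± 0.20, and both overlap a gene on the opposite strand. With 1 of the 12 libraries left out, those of RBL14 and AT4G34550 each ended in 10 sets, that of HSP18.2 in 8 and that of AT3G09450 in 3, and quantile and total scaling ended the calls of HSP18.2, RBL14 and AT4G34550. The call of AT3G23170 ended in 0 sets, and with the replicate block it missed the threshold (limma, adjusted p = 0.112). The single more positive gene, AT1G53860, of the remorin family, had 2.36 ± 0.52, adjusted p = 0.0472 and was chosen after its values were seen. The count ranged from 7 to 78 with 1 library left out: 16, 16 and 7 without Col local replicate 1, 2 or 3, 13, 9 and 14 without Col systemic replicate 1, 2 or 3, 8, 78 and 9 without myb30 local replicate 1, 2 or 3, and 13, 70 and 8 without myb30 systemic replicate 1, 2 or 3.

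**Figure D5:**
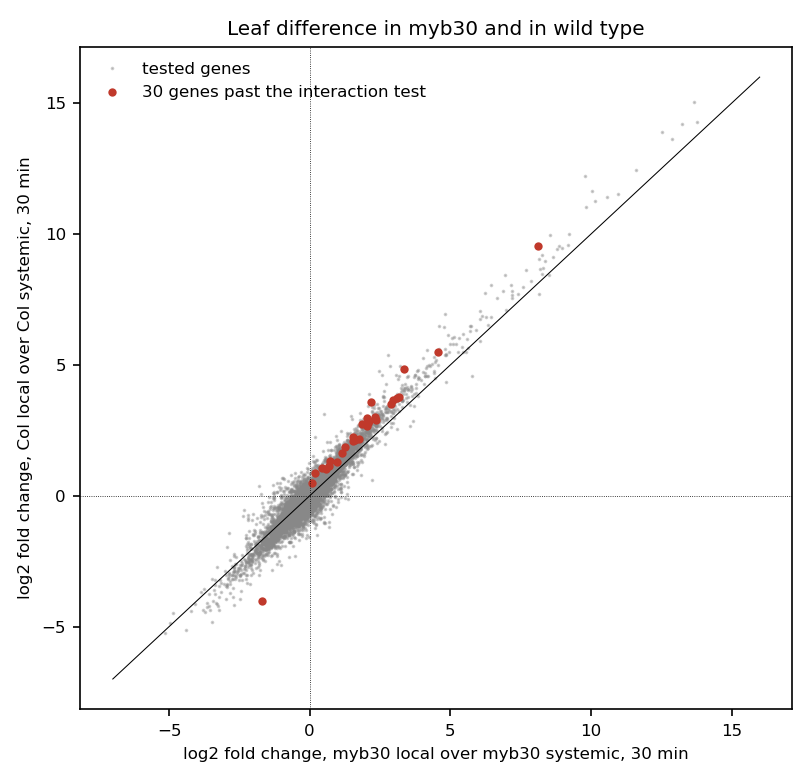
Difference between lit and unlit leaves at 30 min (log2) in myb30 on the x axis and in Col on the y axis, 1 point per tested gene, with the 30 genes whose difference varied by genotype in red. The points run along the diagonal, and 29 of the 30 genes lie on the side of a more positive difference in Col.

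The 3-unit heat shock element was found in 0.412% of the 250-base upstream windows of 32546 genes and in 0.432% of the tested genes. Among genes called higher it was in 0.935%, among those called lower in 0.201%, and among those higher by at least 3 in 5.56%; 2 of 9 cytosolic small heat shock genes and 3 of 21 heat shock factors held it. TATCCA was in 13.4% of all windows and 29.3% of those of genes lower by at least 2. The G-box CACGTG, a target of bZIP and bHLH factors, was in 5.9% of all windows and 15% of those higher by at least 3. The PHR1 element was in 5.43% of all windows and in 4 of 14 phosphate genes. These shares are descriptions of sequence windows and bear on no factor.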

How the data were processed

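RNA-seq of 48 libraries in 16 groups of 3 was used. Per the labels and the submitters' processing notes, total RNA was prepared with a Qiagen plant kit, and cutadapt 1.18, FastQC 0.11.7, STAR 2.4.0.1 and DESeq2 1.20.0 were used with genome build TAIR10; settings, counting tool and strand were not given in the sources used here. The deposited signal is read counts that the authors divided by a size factor per library; with the deposited factors, all 1084756 values above 0 (100%) came out whole within 1e-06, giving 70514715 to 89402096 reads per library. No replicate pair was within sampling noise.

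Here, log2(normalised count + 1) of the 19556 genes with a mean of at least 10 was fitted with limma 3.58.1 in R 4.3.3 (trended variance, 16 group means, 32 residual degrees of freedom), with Benjamini-Hochberg adjustment over all tested genes and a threshold of 0.05; standard errors and adjusted p-values come from this fit. edgeR 4.0.16 and DESeq2 1.42.0 were run on the recovered reads as alternatives and called 9772 and 9984 genes between lit and unlit leaves. On simulated counts for this comparison (19556 genes), limma recovered 20%, 66%, 84% and 96% of genes changed 1.25-, 1.5-, 2- and 4-fold, 50 genes each. No other gene was changed in the simulation, and limma called 137 genes there against 9858 in the data. With fewer calls the adjusted threshold is stricter, so these rates are not those of the real comparison. Shares of reads cover counting only. Gene names, products and sequences come from RefSeq on TAIR10.1, which matched 32548 of the 32833 genes.

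Genes were named by rule: the 12 highest and 12 lowest called genes whose higher leaf averaged 50 or more, with over 3 reads in the lower leaf and no overlap, the 5 called genes of largest mean per direction, up to 4 called members per direction and 2 that did not pass per list, and 5 per direction for each difference of differences. Of these, some calls that rested on single libraries are left out of the text. The members, lists and tests were chosen with earlier results of these data known. Pairing by replicate number was checked by correlating deviations from group means between lit and unlit Col libraries. At 8 and 0 min each same-numbered pair correlated above the pairs of unlike number, more weakly at 0 min (0.0849 to 0.309). At 30 min this held for numbers 1 and 3 but not for number 2 (0.0596 against 0.209). The main fit used no block, and results with the block are given below.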

Additional observations from a re-analysis of the deposited data

Results flagged for a closer look

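The difference between lit and unlit wild-type leaves changed with time in many genes, by the test of the difference itself: 4880 genes differed between 30 and 8 min and 7206 between 30 and 0 min. From 8 min, the most positive were APX2 (6.49), GPT2 (5.95), AT1G75580 (5.81), HSP18.2 (5.41) and ELI3-2 (5.34), and the most negative AT3G15450 (-4.12), AT3G62950 (-4.06), BBX17 (-3.87), TPS11 (-3.76) and AT5G22920 (-3.64). From 0 min, they were HSP23.6-MITO (14.56), AT1G53540 (14.27), HSP17.6A (14.20), AT1G07400 (12.50) and HSP17.6II (12.002), and PDF1 (-5.63), ATCTH (-5.25), AT3G15450 (-5.14), MIR167d (-4.99) and AT1G06080 (-4.94). Without the 3 libraries of 0 min that stand apart, 5206 genes differed from 0 min.

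Between the genotypes, 30 genes had a different leaf difference, myb30 minus Col: among them AT3G23170 (-1.50), HSP18.2 (-1.44), AT3G09450 (-1.43), RBL14 (-0.97) and AT4G34550 (-0.95). With 1 of 12 libraries left out, the count moved between 7 and 78. The call of HSP18.2 ended in 8 of these sets, that of AT3G09450 in 3 and those of RBL14 and AT4G34550 in 10 each.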

How the results depend on the processing

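Lit against unlit wild-type leaves at 30 min gave 8773 to 9147 calls with any 1 of the 6 libraries left out, 10417 without the filter, 9653 by quantile and 12795 by total scaling. Of 196 called genes with values of their own here, 180 kept their call under each of 16 alternatives and 0 reversed; of the list counts under the alternatives, 149 moved by over 1.5 times, 61 of them under quantile or total scaling. Genes that were not called changed sign or reached 0. HSFA1B was -0.29 by total scaling and -0.0654 to 0.0908 with 1 library left out, and JAZ9 was -0.10 by quantile scaling. RBCS1A was 0 by quantile scaling and a called -0.38 by total scaling. LOX2 was -0.49 to 0.0824 with 1 library left out. RBOHD was -0.0766 by total scaling and -0.0292 to 0.42 with 1 library left out, and mtHSC70-1 was -0.0017 by total scaling. TPS1 was -0.0017 by edgeR, a called -0.18 by quantile scaling, a called -0.30 by total scaling and -0.0445 to 0.0958 with 1 library left out. MBF1B, PIF3 and AT4G21870 kept their sign and were called lower by total scaling, MBF1B by quantile scaling as well. The 0 min comparison gave 0 to 1 calls with 1 library left out, the 1 call without Col local 0 min replicate 1. The 30 genes of the genotype difference became 66 by DESeq2, 1 with the compared groups alone, 7 by quantile and 11 by total scaling, and 7 to 78 with 1 library left out; the cause was not tested. With the replicate number as a block, 10709 genes were called between the wild-type leaves and 1 gene by genotype. Of the jasmonate synthesis genes, 10 were then higher and 1 lower. JAZ9 (0.59), LHY (0.36) and mtHSC70-1 (0.30) were called higher under the block, and LHCA1 (-0.15) was not called. Same-numbered lit and unlit deviations at 30 min correlated at 0.473, 0.0596 and 0.239, so they showed no pairing for number 2. With 3 libraries per leaf these correlations cannot settle whether the leaves of a repeat came from the same plants. At 8 min each same-numbered pair correlated above those of unlike number (0.315 to 0.587). With the block, the 4880 genes of 30 against 8 min became 6564. Under the block 19 list counts moved by over 1.5 times. Intervals wider than 1 on the log2 scale, as for LOX2 and JAZ9, limit what 3 libraries can show.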
